A study of Mus musculus with 6 samples.

Results

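The genes described here are 3 genes of transforming growth factor beta (TGF-beta) signalling, Tgfb1, Tgfb3 and Tgfbr2, and Fgl2, a gene outside that pathway. They were chosen by name, with earlier results of these data known. Every probe set whose platform annotation gave one of these symbols was taken, whatever its values. This gave 4 genes of the 8252 named on the array, measured by 6 of its 12488 probe sets. Of the 6, 4 were bright enough to be tested, 1 for Tgfb1, 2 for Tgfb3 and 1 for Fgl2. The Tgfbr2 probe set and a second Fgl2 probe set were not tested.

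The arrays measured RNA of intraepithelial lymphocytes, T cells that lie between the epithelial cells of the gut lining, sorted from the small intestine of untreated C57BL/6 mice under 8 weeks of age. The 3 sorted subsets were T cells with a gamma-delta receptor and the CD8 alpha homodimer (TCRgd CD8aa), T cells with an alpha-beta receptor and the same homodimer (TCRab CD8aa), and T cells with an alpha-beta receptor and the CD8 alpha-beta heterodimer (TCRab CD8ab). The CD8ab form is that of conventional killer T cells, and the CD8aa form is common on T cells of the gut lining. There were 2 experiments, each with its own pool of 20 mice, and each gave 1 array per subset, so n = 2 for every group. No p-value here therefore measures the spread between mice. In a fit without the experiment as a block, it rests on the spread between the 2 pools. In a fit with that block, the pool difference is taken out. It then rests on how far the differences between subsets vary from 1 experiment to the other. In both fits the spread of a probe set is also drawn toward that of other probe sets of like signal. A p-value therefore does not rest on the values of its own probe set alone. In such sorted populations, fewer cells that express a gene and less RNA in each cell cannot be told apart. Sample titles spell the gamma-delta subset TCRgb, and the source description, TCRgd, was followed.

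TGF-beta is made as an inactive precursor that stays bound to its own propeptide until integrins or proteases release it. The active dimer binds the type II receptor, encoded by Tgfbr2, which then activates the type I receptor, encoded by Tgfbr1, and the signal passes to the nucleus through Smad proteins. In the gut, TGF-beta restrains T cells and induces the integrin chain CD103, which holds lymphocytes to the epithelium. Tgfb1 and Tgfb3 encode ligands of this family. Fgl2 encodes fibrinogen-like protein 2, which exists as a secreted protein that dampens immune responses and as a membrane-bound enzyme that cleaves prothrombin.

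The start of Fgl2 is shown because its difference had the smallest p among the 4 genes. The sequence is the 250 bases before the RefSeq start of the gene in build GRCm38.p6, chr5:21372423-21372672, plus strand, written 5′ to 3′. The capitals mark the one match to the AP-1 word TGANTCA, the binding word of Jun and Fos proteins.
Fgl2: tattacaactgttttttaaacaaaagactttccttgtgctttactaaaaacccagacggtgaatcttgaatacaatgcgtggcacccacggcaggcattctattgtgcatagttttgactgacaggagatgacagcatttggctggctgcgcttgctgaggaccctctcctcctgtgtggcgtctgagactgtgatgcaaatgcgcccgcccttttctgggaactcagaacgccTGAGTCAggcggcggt
The match lies 16 to 10 bases before the start. On either strand, 2217 of 32851 RefSeq promoters of this length hold the word, or 6.75%. The other words searched on both strands were CAGACA for Smad proteins, TGTGGT for RUNX proteins, GGTGTGA for T-box proteins, TATAAA for the basal machinery and CCGGAAGT for ETS proteins, and 0 matches to them lay in this window. They were found in 17.1%, 14.0%, 3.33%, 12.4% and 2.88% of all promoters. The windows of Tgfb1 and Tgfbr2 held 0 matches to any of the 6 words. Base composition differed, with 49.6% G and C for Fgl2, 75.2% for Tgfb1 and 58.4% for Tgfbr2.

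Several facts of the 6 arrays bear on the values below. More probe sets differed between experiments than between subsets: with limma and the subsets in the fit, 1138 of 8299 tested probe sets were higher in experiment 2 (13.7%) and 1689 were lower (20.4%) at adjusted p under 0.05. Each experiment was 1 pool, so p-values between experiments take the subsets of a pool as replicates. They do not measure the spread between pools. The ratio of 3′ to 5′ signal of the beta-actin control, which rises as RNA is shortened, was 40.4 to 52.2 in experiment 2, against 1.41 to 1.76 in experiment 1. The same ratio for Gapdh was 22.3 to 29.6 in experiment 2, against 3.38 to 5.20 in experiment 1. The TCRgd CD8aa array of experiment 2 carried markers of epithelial cells, with a summed signal of 36704 over the 18 enterocyte markers on the array, against 2314 to 3709 on the other 5 arrays. On the same array the 7 Paneth and goblet cell markers summed to 5139, against 347 to 601 on the other 5, and the 9 B and plasma cell markers to 5590, against 842 to 1625, of which Jchain, the joining chain of secreted antibodies, was 4023.1. Differences of TCRgd CD8aa that are named below are also given without this array, from the fit with the block. Each such value draws through the block on experiment 2 of the other subsets. It is an estimate of the fit, not the difference measured within experiment 1. With an array left out, that fit has few residual degrees of freedom and a group of 1 array. Its p-values are therefore no firm test of a call. Cd8b1, which encodes the CD8 beta chain, followed the labels of the sort, with signals of 28.1 and 763.1 in TCRgd CD8aa and 29.5 and 182.1 in TCRab CD8aa, against 17647 and 27592 in TCRab CD8ab. Pairs of values throughout are those of experiments 1 and 2, in that order.

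Because all 3 subsets of an experiment came from 1 pool, each difference was computed within the experiment as well as between group means. Each result is given from 2 limma fits, without and with the experiment as a block, since the block changes the calls. Without the block, 0 probe sets passed adjusted p under 0.05 in any of the 3 comparisons. At unadjusted p under 0.05 that fit gave 187 of 8299 probe sets (2.25%) for TCRab CD8aa set against TCRab CD8ab, 168 (2.02%) when TCRgd CD8aa took the place of TCRab CD8aa, and 34 (0.41%) between the CD8aa subsets. With the block, 68 (0.819%), 46 (0.554%) and 2 (0.0241%) passed the adjusted threshold in the same comparisons. The first and second comparison share the TCRab CD8ab arrays, so their values are given side by side only.

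**Figure D1:**
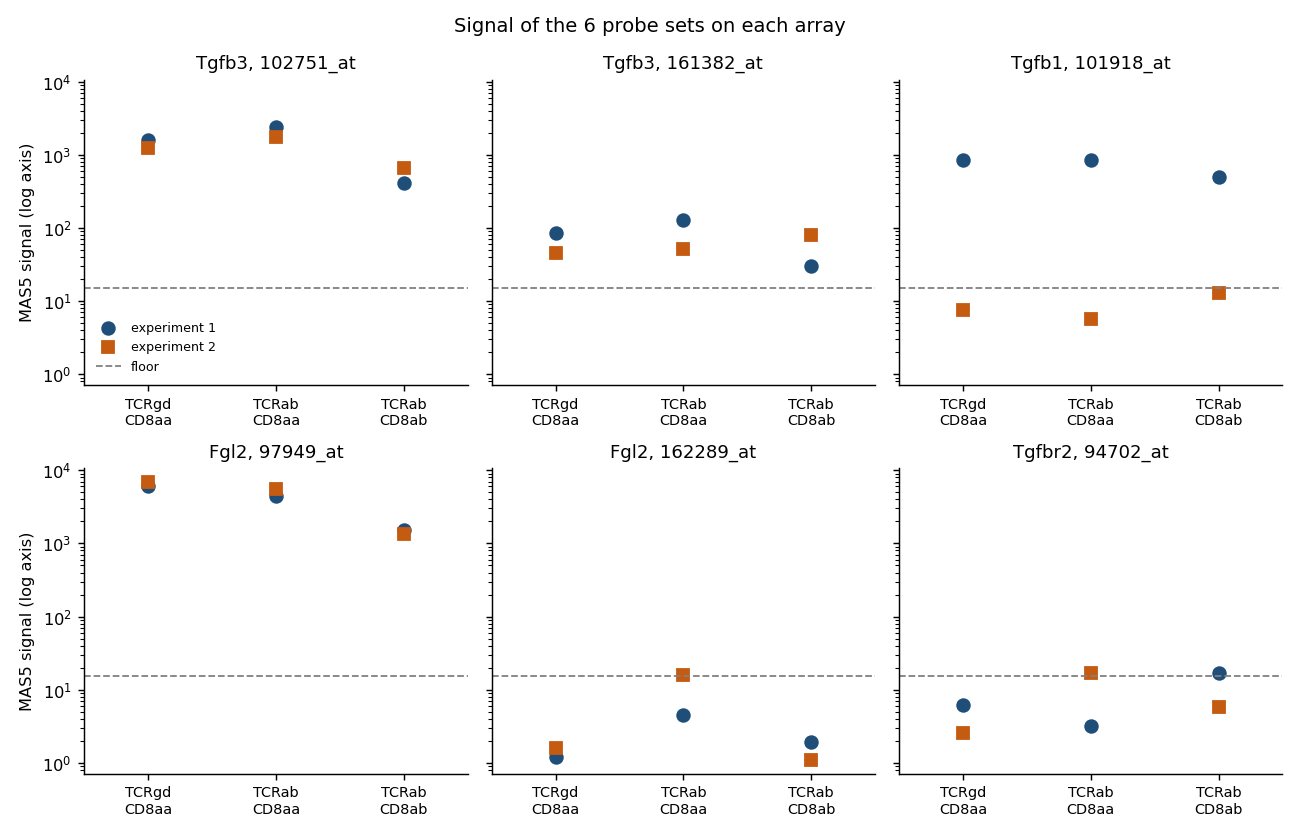
MAS5 signal (log axis) of each of the 6 probe sets on each array, by subset, with circles for experiment 1, squares for experiment 2 and a dashed line at the floor of 15.3. Fgl2 97949_at and Tgfb3 102751_at lay lower in both TCRab CD8ab arrays than in all 4 CD8aa arrays, Tgfb1 lay above the floor in experiment 1 only, and most points of Tgfbr2 and of the second Fgl2 probe set lay under the floor.

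Among the ligands, Tgfb3 was lower in TCRab CD8ab than in the CD8aa subsets by its brighter probe set, and the difference passed the test for TCRab CD8aa, in the fit with the block. The brighter probe set, 102751_at, had signals of 1607.2 and 1229.2 in TCRgd CD8aa, 2428.2 and 1724.1 in TCRab CD8aa, and 409.3 and 649.8 in TCRab CD8ab. Both TCRab CD8ab arrays were lower than every CD8aa array, and both TCRab CD8aa arrays were the highest. The mean signal was 1418 ± 267 in TCRgd CD8aa, 2076 ± 498 in TCRab CD8aa and 530 ± 170 in TCRab CD8ab (SD, n = 2 each).

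In TCRab CD8aa against TCRab CD8ab, Tgfb3 was higher by log2 2.57 in experiment 1 and 1.41 in experiment 2, a mean of 1.99 ± 0.36 (SE of the blocked fit), or 3.97-fold. The limma adjusted p was 0.0443 with the block and 1.00 without it, where the unadjusted p was 0.00774. With the block, 0.518% of all tested probe sets passed in the higher direction. By p of that fit, Tgfb3 was number 64 of 8299 probe sets. The call with the block was lost when an array of this comparison was left out, with limma adjusted p of 0.305 without TCRab CD8aa of experiment 1, 0.139 without TCRab CD8aa of experiment 2 and 0.0577 without TCRab CD8ab of experiment 1. It held without TCRab CD8ab of experiment 2 (0.0123). The difference was positive in each of these fits.

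In TCRgd CD8aa against TCRab CD8ab, the Tgfb3 differences were 1.97 and 0.92, a mean of 1.45 ± 0.36 on the log2 scale, or 2.73-fold. This did not pass, with a limma adjusted p of 0.197 with the block. Without the TCRgd CD8aa array that carried epithelial markers, the difference was 1.68. The CD8aa subsets were neighbours in the order of levels. TCRgd CD8aa differed from TCRab CD8aa by −0.60 and −0.49, a mean of −0.54 ± 0.36 with an adjusted p of 1.00, and both its arrays were the lower ones. Without the TCRgd CD8aa array of experiment 2, the blocked fit estimated −0.31, while the difference measured within experiment 1 was −0.60. Such an order, with both arrays lower, held for 6.64% of all tested probe sets in that comparison.

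The second Tgfb3 probe set, 161382_at, was dim and did not repeat this pattern in experiment 2. Its signals were 86.1 and 45.6 in TCRgd CD8aa, 129.1 and 52.2 in TCRab CD8aa, and 30.2 and 80.6 in TCRab CD8ab. In experiment 1 the order of the subsets was that of 102751_at, and in experiment 2 TCRab CD8ab was the highest. TCRab CD8aa differed from TCRab CD8ab by 2.10 and −0.63, a mean of 0.73 ± 0.77 (limma adjusted p 0.792 with the block). TCRgd CD8aa differed from TCRab CD8ab by 1.51 and −0.82, a mean of 0.34 ± 0.77 (limma adjusted p 0.936 with the block), and 0.83 without the TCRgd CD8aa array of experiment 2. After the mean of each experiment was taken out, the log2 values of both Tgfb3 probe sets had a Pearson r of 0.675 over the 6 arrays. Where each probe set lies along the transcript was not used here, and its part in their difference was not tested.

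Tgfb1, the ligand that lymphocytes are best known for making, was far above the floor in experiment 1 and under it in experiment 2. Its signals were 853.6 and 7.6 in TCRgd CD8aa, 838.1 and 5.7 in TCRab CD8aa, and 488.5 and 12.7 in TCRab CD8ab. The floor was 15.3, and the experiments did not overlap in any subset. Set against the floor, experiment 2 was lower by at least 55.8-fold in TCRgd CD8aa, 54.8-fold in TCRab CD8aa and 31.9-fold in TCRab CD8ab.

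The fitted difference of Tgfb1, experiment 2 minus experiment 1, was log2 −5.52 ± 0.42 with values set to the floor (limma adjusted p 1.26e-04). This p takes the subsets of 1 pool as replicates, and the values of experiment 2, all set to the floor, carry no spread. Of the 8299 tested probe sets, 5 had a lower value (0.0602%). Of the 2910 probe sets with a signal of at least 488.5 on all 3 arrays of experiment 1, Tgfb1 was the 1 that lay under the floor on all 3 arrays of experiment 2. The reverse, at least 488.5 on all 3 arrays of experiment 2 and under the floor on all 3 of experiment 1, held for 0 of 2464. These counts use the value of Tgfb1 itself as their limit. The actin and Gapdh ratios above moved with the experiments too, and their part in the loss of Tgfb1 signal was not tested.

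In experiment 1, where Tgfb1 was measured, its signal was 1.75 times as high in TCRgd CD8aa as in TCRab CD8ab. In TCRab CD8aa it was 1.72 times that of TCRab CD8ab, and the ratio of TCRgd CD8aa to TCRab CD8aa was 1.02. In experiment 2 all subsets stood at the floor, so the differences there were 0 by construction. Over both experiments, the limma differences from TCRab CD8ab were 0.40 ± 0.52 for TCRgd CD8aa and 0.39 ± 0.52 for TCRab CD8aa, with adjusted p of 0.871 and 0.839 with the block. Without the TCRgd CD8aa array of experiment 2, that of TCRgd CD8aa was 0.61. The third ligand gene, Tgfb2, had signals of 16.5 to 42.9 and was not tested.

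**Figure D2:**
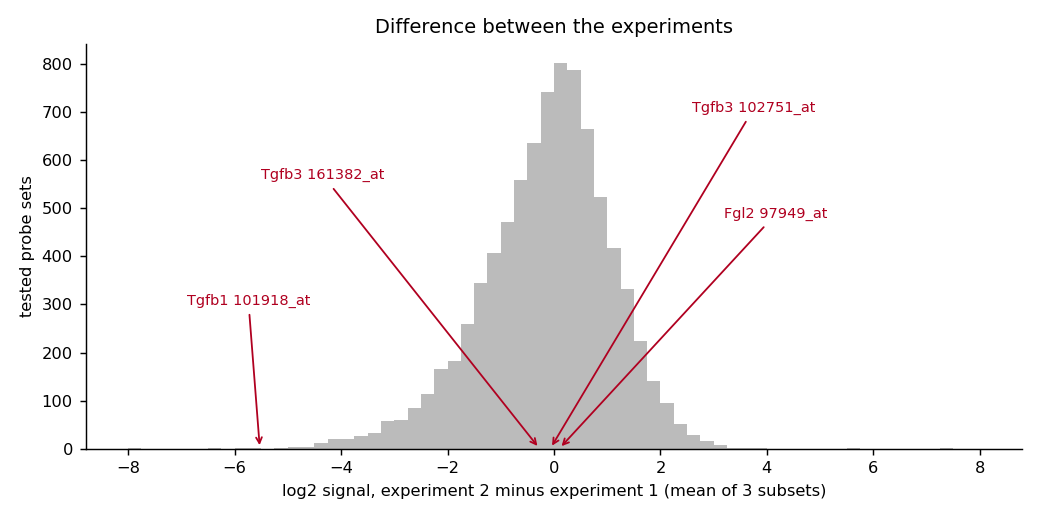
Number of tested probe sets by their difference in log2 signal, experiment 2 minus experiment 1 (mean of the 3 subsets, bins of 0.25), with arrows at the 4 tested probe sets of Tgfb1, Tgfb3 and Fgl2. Tgfb1 lay at −5.52, in the lower tail of the 8299 probe sets, and the other 3 lay between −0.27 and 0.10.

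The other tested probe sets of these genes did not pass the test between experiments. The difference, experiment 2 minus experiment 1, was −0.07 ± 0.29 for Tgfb3 102751_at, −0.27 ± 0.63 for 161382_at and 0.10 ± 0.24 for Fgl2 97949_at, with limma adjusted p of 0.874, 0.776 and 0.785.

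Tgfbr2, the receptor chain that binds the ligand, gave no usable signal. Its single probe set, 94702_at, read 6.1 and 2.6 in TCRgd CD8aa, 3.2 and 17.1 in TCRab CD8aa, and 16.9 and 5.8 in TCRab CD8ab. The signal was under the floor on 4 arrays and just over it on the other 2, so no difference was computed, and the values give no order of the subsets. The partner receptors were also dim. Tgfbr1 read 14.9 and 8.5 in TCRgd CD8aa, 53.7 and 4.2 in TCRab CD8aa, and 19.8 and 2.4 in TCRab CD8ab. Tgfbr3, a co-receptor that presents ligand, ranged from 33.5 to 82.8 over the 6 arrays. Neither was bright enough to be tested.

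Fgl2 was higher in both CD8aa subsets than in TCRab CD8ab, about 4.51-fold in TCRgd CD8aa and 3.50-fold in TCRab CD8aa, and both differences passed the test in the fit with the block. Probe set 97949_at had signals of 6035.9 and 6838.2 in TCRgd CD8aa, 4478.0 and 5565.3 in TCRab CD8aa, and 1531.0 and 1328.1 in TCRab CD8ab. The 3 subsets did not overlap, with TCRgd CD8aa highest and TCRab CD8ab lowest. The mean signal was 6437 ± 567 in TCRgd CD8aa, 5022 ± 769 in TCRab CD8aa and 1430 ± 143 in TCRab CD8ab (SD, n = 2 each).

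In TCRgd CD8aa against TCRab CD8ab, Fgl2 was higher by log2 1.98 and 2.36, a mean of 2.17 ± 0.29 (SE of the blocked fit), or 4.51-fold. The limma adjusted p was 0.0133 with the block and 0.844 without it, where the unadjusted p was 0.00234. With the block, 0.337% of tested probe sets passed in the higher direction, and Fgl2 was number 20 of 8299 by p. Without the TCRgd CD8aa array that carried epithelial markers, the difference was 2.11. The call was lost without the TCRab CD8ab array of experiment 2, at 1.95 and an adjusted p of 0.0576.

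In TCRab CD8aa against TCRab CD8ab, Fgl2 was higher by 1.55 and 2.07, a mean of 1.81 ± 0.29 on the log2 scale, or 3.50-fold. The limma adjusted p was 0.0255 with the block and 0.965 without it, where the unadjusted p was 0.00585, and Fgl2 was number 44 of 8299 by p with the block. Leaving out TCRab CD8aa of experiment 1 or 2, or TCRab CD8ab of experiment 2, gave limma adjusted p of 0.0941, 0.341 and 0.105, with differences of 1.97, 1.64 and 1.58. Between the CD8aa subsets, TCRgd CD8aa was above TCRab CD8aa by 0.43 and 0.30, a mean of 0.36 ± 0.29 or 1.29-fold, which did not pass (limma adjusted p 1.00 with the block), and 0.30 without the TCRgd CD8aa array of experiment 2. Both TCRgd CD8aa arrays were the higher ones, an order that 7.78% of all tested probe sets had.

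The second Fgl2 probe set, 162289_at, read 1.2 and 1.6 in TCRgd CD8aa, 4.5 and 16 in TCRab CD8aa, and 1.9 and 1.1 in TCRab CD8ab. It lay under the floor on 5 of 6 arrays, so the Fgl2 result rests on 1 probe set.

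**Figure D3:**
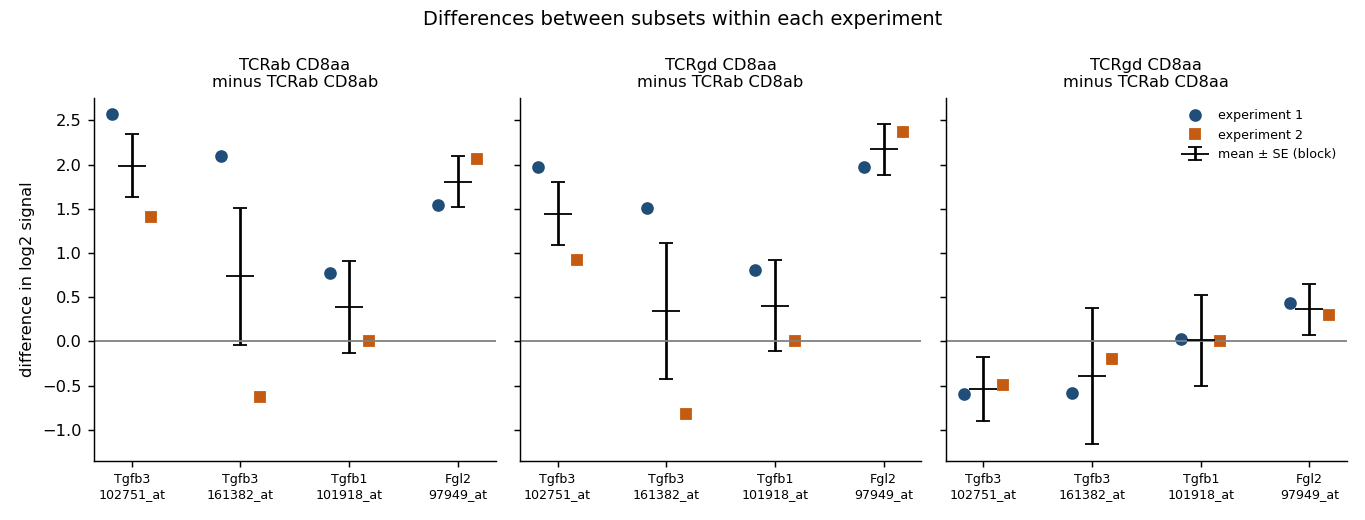
Difference in log2 signal between subsets for the 4 tested probe sets, one panel per comparison, with circles for experiment 1, squares for experiment 2, and bars for the mean ± SE of the limma fit with the block. Measured from TCRab CD8ab, Fgl2 stood at 2.17 in TCRgd CD8aa and 1.81 in TCRab CD8aa, and Tgfb3 102751_at at 1.45 and 1.99 with a wider gap between experiments, and the mean differences between the CD8aa subsets lay from −0.54 to 0.36.

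Counted together, 2 of the 4 tested probe sets were higher in TCRab CD8aa than in TCRab CD8ab with the block, Tgfb3 102751_at and Fgl2 97949_at. Of all tested probe sets, 0.518% passed in that direction. Fgl2 was the 1 of 4 that was higher in TCRgd CD8aa than in TCRab CD8ab, where 0.337% of all tested probe sets passed as higher. These 3 calls, made with the block, were lost when limma was run without its intensity trend (adjusted p 0.219 to 0.272) and when dim probe sets were not filtered out (0.454 to 0.579), and the Tgfb3 call also under quantile normalization (0.0550) and a lower floor (0.0505). Between the CD8aa subsets 0 of 4 passed, where 0.0241% of all tested probe sets did, 0.012% in each direction. In both comparisons with TCRab CD8ab, Fgl2 97949_at and Tgfb3 102751_at were higher on both arrays of the CD8aa subset than on both of TCRab CD8ab. The background for this was 9.39% of tested probe sets in TCRgd CD8aa and 10% in TCRab CD8aa. A larger difference than that of Tgfb3 was seen in 2.46% of tested probe sets in TCRgd CD8aa and 0.699% in TCRab CD8aa. For Fgl2 these shares were 0.976% in TCRgd CD8aa and 0.952% in TCRab CD8aa. Because the genes were chosen with earlier results of these data known, the ranks and shares describe them and are not a test.

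Fgl2 is also made by macrophages and by endothelium, so markers of other cells are given beside it. The summed signal of the 16 macrophage and dendritic cell markers was 3474 and 3372 in TCRgd CD8aa, 2755 and 1329 in TCRab CD8aa, and 2248 and 2193 in TCRab CD8ab. It was highest in TCRgd CD8aa, as Fgl2 was, and lowest in TCRab CD8aa of experiment 2, where Fgl2 had 5565.3. Much of this sum was Itgax, the CD11c chain, with 2233.1 and 914.6 in TCRgd CD8aa, 1692.6 and 624.9 in TCRab CD8aa, and 682.1 and 730.7 in TCRab CD8ab. Of the 16, 9 were above the floor on all 6 arrays. Besides Itgax these included Cd14 (163.6 to 437.3), Cd68 (76.1 to 330.1), Cd74 (97.2 to 438.4), Csf1r (31.1 to 232.3) and the complement genes C1qa, C1qb and C1qc. Of the other 7, Lyz2, which encodes lysozyme, read 6.3 and 303.0 in TCRgd CD8aa, 8.5 and 7.8 in TCRab CD8aa, and 5.4 and 11.4 in TCRab CD8ab. H2-Aa read 180.9 and 417.2 in TCRgd CD8aa, 27.7 and 6.6 in TCRab CD8aa, and 119.2 and 14.8 in TCRab CD8ab. H2-Ab1 read 73.8 and 280.4, 63.9 and 10.1, and 118.4 and 21.1 in the same order. Lyz2, H2-Aa, H2-Ab1, Cd14 and Cd74 were highest in TCRgd CD8aa of experiment 2, as Fgl2 was. Csf1r, Cd68, Fcgr1, C1qb, Adgre1, Mrc1 and Ccr2 were highest on an array of TCRab CD8ab, the subset where Fgl2 was lowest. Itgax and Itgam were highest in TCRgd CD8aa of experiment 1, and C1qa and C1qc in TCRab CD8aa of experiment 1. Cd68 read 174.1 and 76.1 in TCRgd CD8aa, 170.7 and 85.6 in TCRab CD8aa, and 330.1 and 266.4 in TCRab CD8ab. Ccr2 ranged from 5.0 to 104.3 and Mrc1 from 5.7 to 26.9. Adgre1, which encodes F4/80, ranged from 3.6 to 23.1 and Itgam, the CD11b chain, from 5.0 to 16.5 over the 6 arrays.

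The 14 stromal and endothelial markers summed to 1288 and 1440 in TCRgd CD8aa, 1102 and 1296 in TCRab CD8aa, and 1107 and 1953 in TCRab CD8ab. Of these, 6 were above the floor on all 6 arrays, among them Col1a2 (462.9 to 982.3), Col6a1 (111.5 to 238.8) and Pecam1 (123.7 to 197.7), which marks endothelium. Sparc, Acta2 and Vwf were under the floor on all 6 arrays. In experiment 1, where the enterocyte sum was 2469 in TCRgd CD8aa, the Fgl2 difference from TCRab CD8ab was 1.98. The 10 mast cell and granulocyte markers summed to 344 and 894 in TCRgd CD8aa, 365 and 125 in TCRab CD8aa, and 215 and 341 in TCRab CD8ab. The 5 CD4 and regulatory T cell markers on the array gave sums of 3335 and 4836 in TCRgd CD8aa, 4303 and 5185 in TCRab CD8aa, and 11348 and 12498 in TCRab CD8ab. Nearly all of this was Ctla4, an inhibitory receptor that other T cells carry too, with 3007.5 and 4485.1 in TCRgd CD8aa, 3967.1 and 4951.3 in TCRab CD8aa, and 11151.8 and 12116.1 in TCRab CD8ab. Cd4 itself ranged from 91.2 to 206.8 over the 6 arrays, with 108.5 and 189.5 in TCRab CD8ab. The part of other cells in the Fgl2 and Tgfb3 differences was not tested beyond these values.

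**Figure D4:**
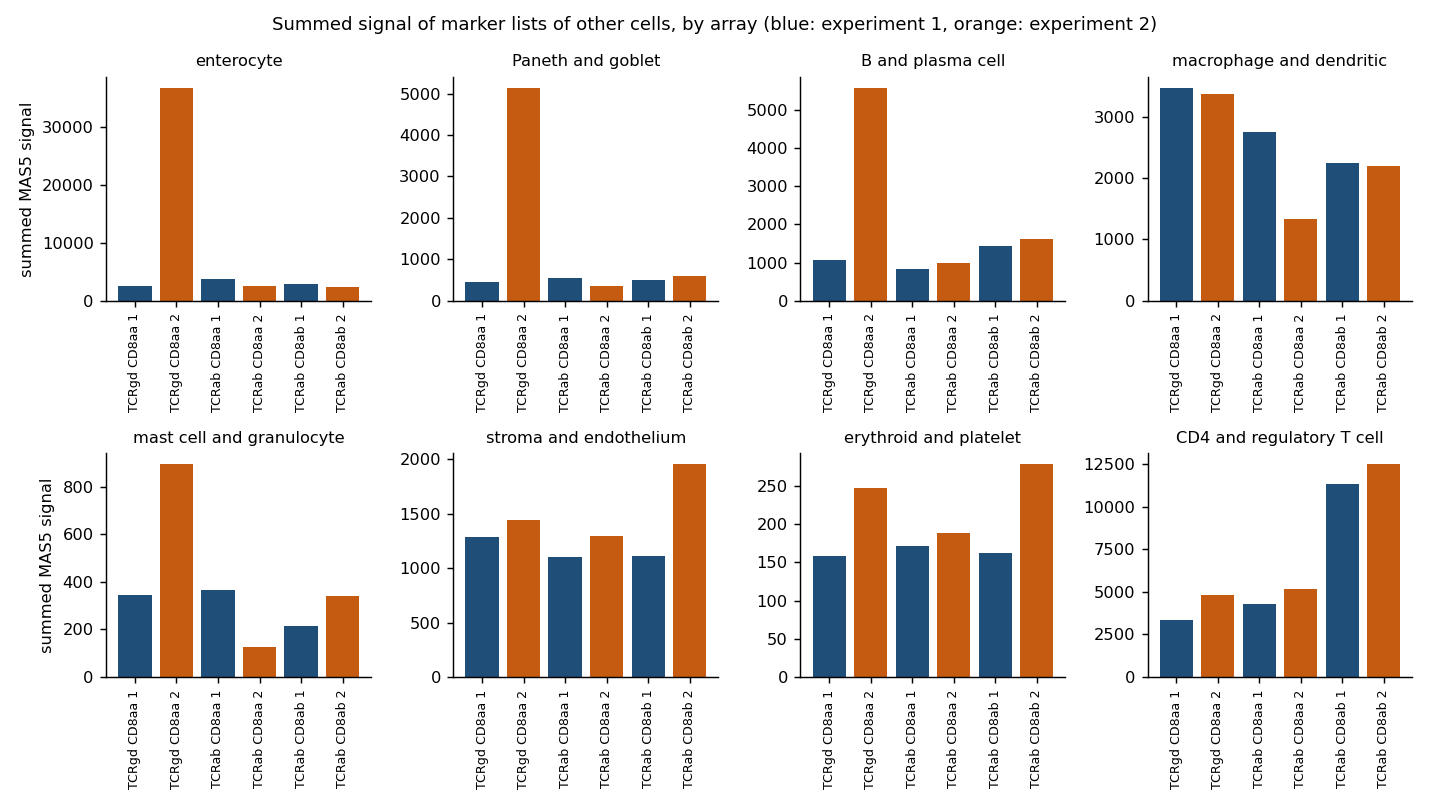
Summed MAS5 signal of 8 lists of markers of other cells, one bar per array, blue for experiment 1 and orange for experiment 2. The enterocyte bar of TCRgd CD8aa in experiment 2 stands at 36704 and the other 5 at 2314 to 3709, and its Paneth and goblet bar (5139) and B and plasma cell bar (5590) are also above those of the other arrays, while the macrophage bars run from 1329 to 3474.

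Around the 4 genes, 9 lists by role held 122 genes, of which 95 were on the array and 50 were bright enough to be tested. With the block, 1 of the 50 was higher in TCRab CD8aa than in TCRab CD8ab (Tgfb3), and 1 was lower (Lgals1), where 0.518% and 0.301% of all tested probe sets passed. In TCRgd CD8aa against TCRab CD8ab, 0 were higher and 1 was lower (Lgals1), where 0.337% and 0.217% of all tested probe sets passed. Between the CD8aa subsets 0 passed. Without the block 0 passed in any comparison. Measured from TCRab CD8ab, the median difference of the 50 was 0.03 in TCRgd CD8aa and −0.02 in TCRab CD8aa, beside −0.06 and −0.08 for all tested probe sets. Between experiments, 7 of the 50 were higher and 14 lower in experiment 2, beside 13.7% and 20.4% of all tested probe sets.

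Lgals1 was the one pathway gene other than Tgfb3 to pass, and it stood in the list of TGF-beta induced genes. It encodes galectin-1, a sugar-binding protein that is made by activated T cells and can dampen them. Its signals were 349.1 and 197.0 in TCRgd CD8aa, 251.2 and 188.7 in TCRab CD8aa, and 1940.7 and 1340.3 in TCRab CD8ab. Every CD8aa array was lower than both TCRab CD8ab arrays, an order that 10.4% of all tested probe sets had in TCRgd CD8aa and 12.8% in TCRab CD8aa. The difference was −2.62 ± 0.34 in TCRgd CD8aa (limma adjusted p 0.0114 with the block, 0.865 without) and −2.89 ± 0.34 in TCRab CD8aa (0.00550 with the block, 0.60 without). Without the TCRab CD8ab array of experiment 2, the limma adjusted p in TCRgd CD8aa was 0.0509 with the block. Without the TCRgd CD8aa array that carried epithelial markers, the difference in TCRgd CD8aa was −2.44. Both Lgals1 calls were also lost without the intensity trend and with no filter on dim probe sets. The other 10 tested genes of that list did not pass. They included Tsc22d1, at 1.91 ± 0.63 in TCRgd CD8aa (limma adjusted p 0.392 with the block), and Runx1, at −1.61 ± 0.65 in TCRgd CD8aa (0.542). Experiment 2 carried both means, with differences of 0.56 and 3.25 for Tsc22d1 and −0.29 and −2.93 for Runx1. Without the TCRgd CD8aa array of experiment 2, the blocked fit estimated 1.05 for Tsc22d1 and −0.39 for Runx1. The differences measured within experiment 1 were 0.56 and −0.29.

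Itgae, which encodes the CD103 chain that TGF-beta induces, was picked after its values were seen. Its signals were 13132.2 and 7054.6 in TCRgd CD8aa, 13522.5 and 7682.3 in TCRab CD8aa, and 12251.9 and 6999.4 in TCRab CD8ab. Its differences from TCRab CD8ab were 0.06 ± 0.28 in TCRgd CD8aa and 0.14 ± 0.28 in TCRab CD8aa, with limma adjusted p of 0.976 and 0.901 with the block. The difference in TCRgd CD8aa was 0.10 without its array of experiment 2.

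Of the genes that store and activate the ligand, 6 of 15 were tested and 0 passed. Itgav, the integrin alpha chain that pairs with several beta chains to release TGF-beta, came closest. It had signals of 3908.4 and 6957.3 in TCRgd CD8aa, 4078.4 and 7834.9 in TCRab CD8aa, and 2261.8 and 2399.0 in TCRab CD8ab. All CD8aa arrays were above both TCRab CD8ab arrays, and the difference in TCRab CD8aa was 1.28 ± 0.31 (limma adjusted p 0.149 with the block). Ltbp4, a latent TGF-beta binding protein, differed by 1.22 ± 0.69 in TCRab CD8aa (0.606), and Mmp2, a gelatinase that can release the ligand, by −1.18 ± 0.79 in TCRab CD8aa (0.659).

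Of the receptor genes, 2 of 5 were tested. Eng, the co-receptor endoglin, differed by −1.18 ± 0.53 in TCRgd CD8aa (limma adjusted p 0.620 with the block), and Acvrl1, a type I receptor of endothelium, by −0.97 ± 0.53 in TCRab CD8aa (0.587). Of the Smads and their partners, 6 of 12 were tested and 0 passed. Smad2, which carries the signal of TGF-beta receptors, was chosen after its values were seen and read 1926.2 and 2018.3 in TCRgd CD8aa, 1980.2 and 2070.0 in TCRab CD8aa, and 1974.8 and 1440.3 in TCRab CD8ab. Tab2, an adaptor of the TAK1 kinase branch, differed by 0.74 ± 0.33 in TCRgd CD8aa (0.617). Between the CD8aa subsets, Sp1, a general transcription factor, was at −0.49 ± 0.35 and Smad4, the common partner of the other Smads, at −0.34 ± 0.30, both with an adjusted p of 1.00.

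Of the inhibitors, 7 of 12 were tested and 0 passed. Ppp1r15a, also known as GADD34, which brings a phosphatase to the type I receptor, differed by −1.13 ± 0.34 in TCRab CD8aa (limma adjusted p 0.285 with the block), and Ski, a repressor of Smad-driven transcription, by −0.57 ± 0.33 in TCRgd CD8aa (0.710). Strap, which holds Smad7 at the receptor, differed by 0.65 ± 0.38 in TCRab CD8aa (limma adjusted p 0.611 with the block). Smad7, the feedback inhibitor that TGF-beta itself induces, was chosen after its values were seen. It read 1782.2 and 808.0 in TCRgd CD8aa, 2622.7 and 880.5 in TCRab CD8aa, and 2298.8 and 1153.7 in TCRab CD8ab, and was lower in experiment 2 in all 3 subsets.

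In the wider TGF-beta family, 8 of 24 genes were tested and 0 passed. Gdf9, a ligand known from the ovary, differed by 2.15 ± 0.60 in TCRab CD8aa (limma adjusted p 0.224 with the block) and was dim, at 21.4 to 185.9. Acvr2a, the activin type II receptor, differed by 1.32 ± 0.40 in TCRgd CD8aa (0.336). Bmp7, a bone morphogenetic protein, differed by 1.77 ± 1.03 in TCRgd CD8aa (0.712), with 3.53 in experiment 1 and 0.01 in experiment 2. Among the receptors and relatives of Fgl2, 2 of 15 genes were tested, and 0 passed. F2, which encodes prothrombin, the substrate of the membrane form of Fgl2, differed by 1.06 ± 1.00 between TCRgd CD8aa and TCRab CD8aa, and Angptl4, a secreted protein with a fibrinogen-like domain, by 0.85 ± 0.81 in TCRgd CD8aa, with limma adjusted p of 1.00 and 0.817 with the block. F2 was under the floor on 4 arrays, and its difference was 0 in experiment 1 and 2.12 in experiment 2. Fcgr2b, the inhibitory Fc receptor that binds Fgl2, ranged from 3.5 to 35.9 and was not tested. Of the other secreted factors that dampen immunity or aid repair, 6 of 18 were tested and 0 passed. Lgals3, which encodes galectin-3, differed by 0.84 ± 0.34 in TCRgd CD8aa from TCRab CD8ab, and Lgals9, which encodes galectin-9, by 0.71 ± 0.33 in TCRgd CD8aa from TCRab CD8aa, with limma adjusted p of 0.552 and 1.00 with the block. Penk, the enkephalin precursor, differed by −3.36 ± 0.64 in TCRab CD8aa and did not pass (limma adjusted p 0.0559 with the block). Its signals were 77.9 and 127.0 in TCRgd CD8aa, 71.7 and 53.4 in TCRab CD8aa, and 1356.9 and 298.9 in TCRab CD8ab. Il10 ranged from 6.6 to 47.9 and was not tested. Without the TCRgd CD8aa array of experiment 2, the differences from TCRab CD8ab in TCRgd CD8aa were −0.58 for Eng and 0.52 for Tab2. Those of Ski, Acvr2a, Bmp7, Angptl4 and Lgals3 were −0.26, 1.31, 2.41, 2.30 and 1.22. Differences from TCRab CD8aa were −0.14 for Sp1, −0.47 for Smad4 and 0.85 for Lgals9. The fit gave 0.50 for F2, but its remaining CD8aa values were all under the floor. That 0.50 came from the TCRab CD8ab arrays through the block and is not a measured difference.

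**Figure D5:**
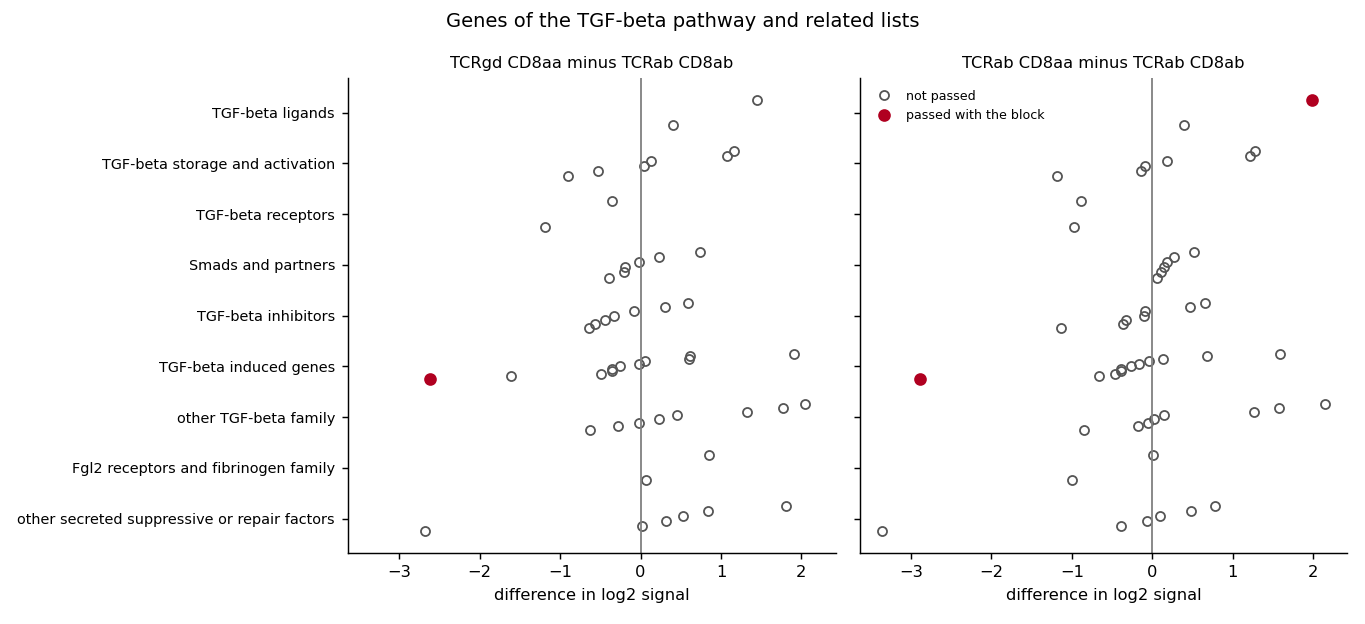
Difference in log2 signal from TCRab CD8ab of each tested gene in the 9 lists, for TCRgd CD8aa on the left and TCRab CD8aa on the right, with filled points for genes that passed limma adjusted p under 0.05 with the block. The filled points are Lgals1 in both panels, at −2.62 and −2.89, and Tgfb3 on the right at 1.99, and the other genes lie on both sides of 0.

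The genes whose pattern was most like that of each member were ranked by Pearson's r over the 6 arrays after the mean of each experiment was removed, among 6108 genes. These r values are descriptive, the points share pools and arrays, and with so few arrays many genes come close: 70 genes exceeded 0.95 for Tgfb3, 100 for Fgl2 and 45 for Tgfb1. For Tgfb3 the first 3 were Matk (0.998), a kinase that restrains Src kinases, Htra3 (0.995), a secreted protease, and Fryl (0.995). Matk had signals of 948.3 and 783.5 in TCRgd CD8aa, 1318.0 and 948.6 in TCRab CD8aa, and 332.2 and 435.5 in TCRab CD8ab, the same order of subsets in both experiments. For Fgl2 the first 3 were Pcyt1a (0.997), an enzyme of phosphatidylcholine synthesis, Gm12219 (0.997) and Fam50a (0.996). Pcyt1a had signals of 2791.0 and 2162.4 in TCRgd CD8aa, 2265.8 and 2051.4 in TCRab CD8aa, and 812.1 and 518.4 in TCRab CD8ab.

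For Tgfb1 the first 3 were Zfp771 (1.00), Stat3 (0.999), which carries signals of interleukins, and Pim2 (0.996), a survival kinase. Tgfb1 stood at the floor in experiment 2, so only experiment 1 gave its order of subsets. A high r with Tgfb1 also required a gene to differ little between subsets in experiment 2. Between the members, r was 0.831 for Tgfb3 and Fgl2, 0.855 for Tgfb1 and Tgfb3, and 0.618 for Tgfb1 and Fgl2. The values with Tgfb1 are lowered by the differences of Tgfb3 and Fgl2 in experiment 2. Tgfb3 was highest in TCRab CD8aa and Fgl2 in TCRgd CD8aa, in both experiments.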

How the data were processed

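The deposited values were MAS5 signal intensity per probe set, with 3 subsets on 2 arrays each, per the submitters' processing notes, which give no version. On all 6 arrays the mean of the deposited intensity, with 2% left out at each end, was about 500.4, and the factors applied here were 0.999915 to 1.00006. Detection calls, probe positions and the genome build of the array were not used here. Of 12488 probe sets, 66 were controls, and of the rest 10833 carried 1 symbol, 396 several and 1193 none in the platform annotation. Signals under the 20th percentile (15.3) were set to that floor, and log2 was taken. Testing required a signal above the 40th percentile (56.4) on 2 or more arrays, and 8299 probe sets met this. The arrays had median signals of 83.5 to 113.4 and 17.1% to 24.5% of probe sets at or under the floor. The number of arrays limits the precision.

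Limma 3.58.1 (R 4.3.3) was fitted to the 6 arrays together, in the main setting without a block, with the intensity trend, Benjamini-Hochberg adjustment over all 8299 probe sets and a threshold of 0.05. The alternative had the experiment as a block, because the study sorted all 3 subsets of an experiment from 1 pool. Deviations of same-numbered arrays from their group means correlated at r = 0.618, 0.603 and 0.713. The standard errors printed are those of the blocked fit, pooled over subsets. A gene with several probe sets is represented in the lists by its brightest one. Up to 3 genes per list were named by smallest blocked p, and the 3 closest by likeness. The members and lists were chosen with earlier results of these data known. The fits were run on simulated data with planted differences and independent noise drawn from the blocked fit. That run checked only that the mean estimates came back near the planted values. It cannot show how the p-values behave with so few pools. Promoter sequences are RefSeq's, build GRCm38.p6, and words were searched with Python 3.11.15. Alternatives covered scaling, floor, filter, trend, block, threshold and each array left out.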

Additional observations from a re-analysis of the deposited data

How the results depend on the processing

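Without the block, 0 probe sets passed in any comparison, with limma, under each scaling, floor, filter, trend and threshold tried, with only the 2 groups compared, and with each array left out. The paired fit with the replicate block gave 68 calls for TCRab CD8aa against TCRab CD8ab, 46 when TCRgd CD8aa was set against that subset, and 2 between the CD8aa subsets. In the same order, the block gave 72, 50 and 1 calls with quantile normalization, 73, 46 and 2 with an added constant in place of the floor, 61, 45 and 2 with the floor at the 10th percentile, 67, 46 and 2 with it at the 30th, 90, 55 and 2 with the filter at the 60th percentile, 6, 3 and 1 without the intensity trend, 109, 65 and 2 at adjusted p under 0.10, and 0 calls with no filter. With each array left out in turn, in both fits, the counts lay between 0 and 182, 0 and 193, and 0 and 114. A fit with the block and 1 array left out has few residual degrees of freedom, and the lone array is assumed to vary like the others.

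For Tgfb3 102751_at in TCRab CD8aa against TCRab CD8ab, the difference was 1.99 and passed with the block, with the floor at the 30th percentile, with the filter at the 60th and at adjusted p under 0.10, and it was 1.96 and passed with an added constant. With the block it did not pass under quantile normalization (limma adjusted p 0.0550), the floor at the 10th percentile (0.0505), no trend (0.272) or no filter (0.579). For Fgl2 97949_at with the block, the difference that passed was 1.81 (1.79 under quantile normalization, 1.80 with an added constant) in TCRab CD8aa, and 2.17 (2.13 and 2.16) in TCRgd CD8aa, also with either other floor and with the filter at the 60th percentile. It did not pass without the trend (0.221 and 0.219) or with no filter (0.522 and 0.454). With each array left out, Tgfb3 ranged from 1.43 to 2.54, and Fgl2 from 1.58 to 2.03 in TCRab CD8aa and from 1.95 to 2.40 in TCRgd CD8aa.

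Directions turned for some probe sets that did not pass. Tgfb1 in TCRab CD8aa against TCRab CD8ab was −0.0403 with the floor at the 10th percentile, with and without the block. With each array left out, it ranged from −2.50 to 3.28 there, from −2.50 to 3.30 in TCRgd CD8aa against TCRab CD8ab and from −2.89 to 2.91 between the CD8aa subsets. Tgfb3 161382_at ranged from −0.53 to 2.00, from −0.92 to 1.61 and from −1.17 to 0.39, and it was not tested with the filter at the 60th percentile. In the comparison each was named for, Strap ranged from −0.41 to 1.72, Mmp2 from −2.46 to 0.11, Angptl4 from −1.18 to 2.88, Ski from −1.28 to 0.15, Bmp7 from −0.23 to 3.77, Lgals3 from −0.97 to 2.66, F2 from 0 to 2.12, Sp1 from −1.25 to 0.26, Lgals9 from −0.0414 to 1.46, and Itgae from −0.39 to 0.50 in TCRgd CD8aa and from −0.27 to 0.55 in TCRab CD8aa. Tsc22d1 ranged from 0.74 to 3.07 and Runx1 from −2.84 to −0.39. The other genes named by the rule kept their direction, and Smad2 and Smad7 were not rerun. The block changed no other call of these 4 genes. The cause of these changes was not tested.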
